A study of Mus musculus with 2 samples.

Results

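The distal end of mouse chromosome 12 was examined through 55 genes that lie between Golga5 and Tmem121, at 102469135 to 113189523 on GRCm38. The genes were named in a list that had been selected on the measured PD800 to PD100 difference of this chromosome end, so their direction is a description and carries no test. They are 55 of 38458 genes counted. The end of the chromosome was taken as the last annotated base, 120021246, and by this measure 46 of the genes start in the last 15 Mb, as the list was meant to, and 9 start before it. All 55 were kept. The span is 10.7 Mb, and the last gene of the list starts 6.84 Mb from the end.

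Single-cell RNA-seq by inDrops captures cells in droplets and counts molecules by random tags, the unique molecular identifiers (UMIs). It had been made from DKO741, a line of E14 mouse embryonic stem cells (mESCs) in which both copies of Terc had been disrupted by gene targeting. Terc is the template RNA of telomerase, and both groups lack it. PD100 cells were collected at passage 100, before alternative lengthening of telomeres (ALT) had set in, and PD800 cells at passage 800, when the survivors of the same line maintained their telomeres by ALT. The cells were grown without feeders for the experiments, and the groups differ in no agent or further allele named in the labels. There was 1 library of 1 targeted line per group. Library, time in culture and ALT cannot be told apart, no test was made, and intervals are given at 95% for counting error alone.

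The cell filter (at least 1000 UMIs and at most 20% mitochondrial UMIs) kept 814 of 1291 PD100 barcodes and 900 of 1666 PD800 barcodes, with 1826233 and 2580963 UMIs in all and medians of 2151 and 2701.5 UMIs per cell. Terc itself had 0 UMIs in either library and could not be used to check the labels. All 8 stem cell markers had UMIs in both libraries, with 11797 and 12333 summed CPM (UMIs scaled to the same library total). Dppa5a carried these sums, with 9.18 and 9.83 UMIs per cell at a depth of 1000 UMIs. Other markers differed in either direction, such as Pou5f1 with 0.57 and 0.43 at that depth and Esrrb with 57 and 230 UMIs in all. All 10 extraembryonic endoderm markers were found in PD100 at 497 CPM, in part in 38 cells with at least 5 such UMIs, against 26.0 CPM in PD800, where Gata6 and Srgn were at 0 and no cell reached 5 UMIs. Fibroblast markers were at 13.1 and 12.4 CPM, with Col1a1 and Lum at 0 in PD100 and Dcn at 0 in PD800. The median mitochondrial share was 1.23% in PD100 and 4.42% in PD800. Barcode names shared by both libraries numbered 21, of which 8 passed the filter in both.

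Mouse chromosomes carry their centromere at one tip, so the listed genes lie towards the long-arm telomere. The segment is gene-rich and holds housekeeping genes of many kinds, such as poly(A) polymerase, a central growth factor kinase, kinesin and dynein chains and tRNA enzymes, around the imprinted Dlk1-Dio3 cluster, and the immunoglobulin heavy chain locus lies beyond it. Cells without telomerase lose telomere repeats with each division. ALT replaces them mainly by recombination with other DNA, and the study reports that in this line a non-telomeric sequence was used besides telomere repeats. The DNA next to telomeres can be gained, lost or joined to other chromosomes when telomeres fail. The genes of such a segment have no common function, so they are described first as a group, then by role and then by place.

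Summed over all cells, the 55 genes accounted for 5592 PD100 UMIs and 10422 PD800 UMIs. Their level was 3062 CPM (exact Poisson interval 2982 to 3143) before ALT and 4038 CPM (3961 to 4116) after it. As log2, PD800 over PD100, this was 0.40 (0.35 to 0.45, exact conditional interval), a 1.32-fold higher level. Over the 6984 genes with at least 50 UMIs in both libraries together, here called tested genes, the median log2 ratio was -0.34. Ratios relative to this median are called relative ratios below, and the ratio of CPM itself the plain ratio. The relative log2 ratio of the sum was 0.74 (0.69 to 0.79), or 1.67-fold. A larger DNA amount per cell, more RNA per gene copy and a different share of all other RNA cannot be told apart in such a ratio.

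Of the 55 genes, 36 were tested genes. The other 19 had between 1 and 37 UMIs over both libraries, and together 137 UMIs in PD100 and 201 in PD800, a relative log2 ratio of 0.40 (0.08 to 0.72) and a plain one of 0.05. Among the 36, the median relative log2 ratio was 0.73 (0.49 to 0.92) and the median plain ratio 0.39, against 0 and -0.34 over all tested genes. The plain ratio was above 0 for 29 of them, where the background over all tested genes was 33.4%, and the relative ratio for 32, where 0 is by construction the median of all tested genes. At least 2-fold higher by the relative ratio were 9 of 36, or 25%, where the background was 13.9%. By the plain ratio it was 3 of 36, or 8.33%, which is near the background of 9.22%. Only Tmem121 was at least 2-fold lower by the relative ratio, 2.78% of the 36, with a background of 7.79%. The counting interval of the relative ratio lay above 0 for 26 genes, or 72.2% (background 30.0%), and below 0 for 1 gene (background 26.5%). By the plain ratio the interval lay above 0 for 15 genes (background 19.2%) and below 0 for 4 (background 45.0%). The list was chosen for its direction, so these shares are descriptive. Within a list so chosen, the relative difference was moderate in many genes rather than large in a few, which the choice itself favours.

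**Figure D1:**
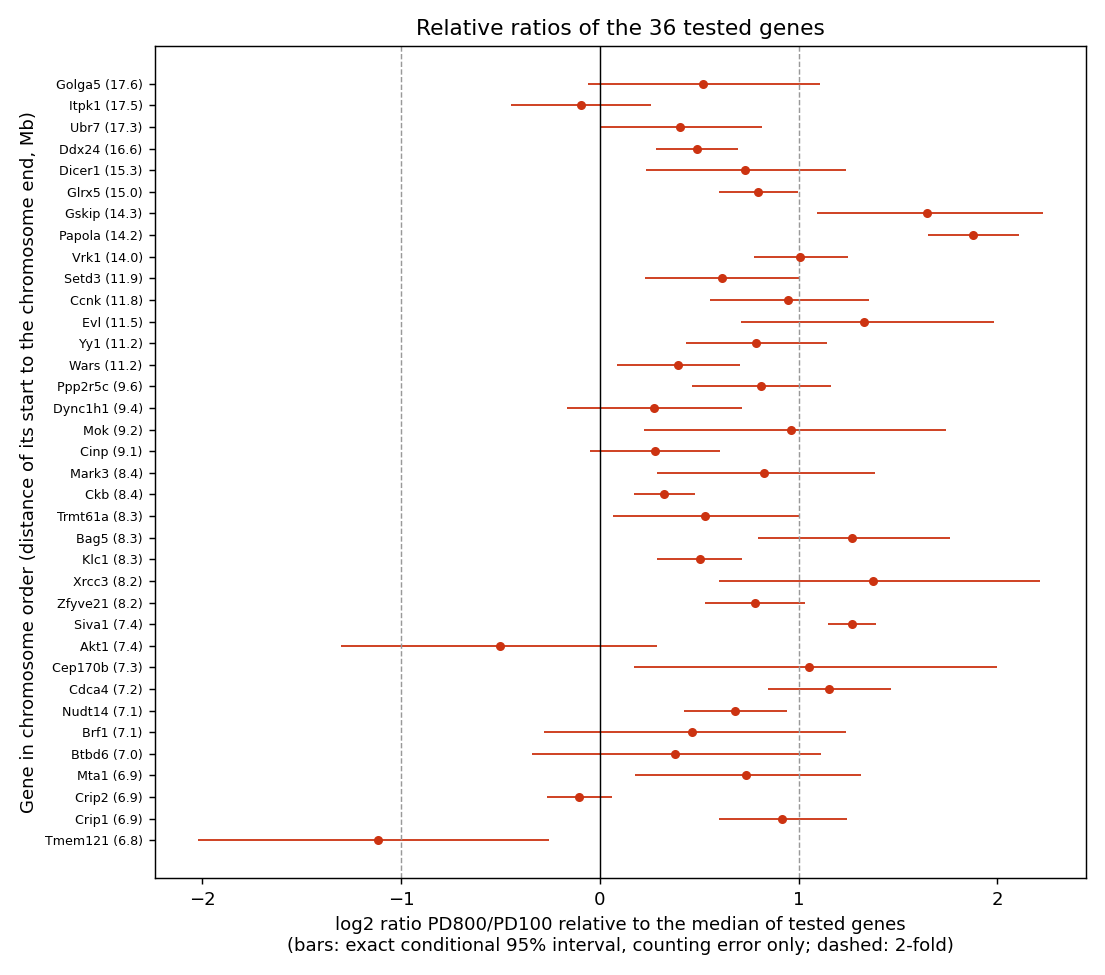
Relative log2 ratio of PD800 over PD100 (x axis, relative to the median of 6984 tested genes) for the 36 tested genes in chromosome order (y axis, with the distance of each start to the chromosome end in Mb). Points are ratios of summed UMIs in 1 library per group, bars are exact conditional 95% intervals for counting error, and dashed lines mark 2-fold. Most points lie between 0 and 1.9, with Itpk1, Akt1, Crip2 and Tmem121 below 0.

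The 2 tested genes of the list with the highest relative ratios lay close together, while others far from 0, such as Evl and Tmem121, lay elsewhere. Papola, which codes for the canonical poly(A) polymerase that adds tails to mRNA, had 195 and 798 UMIs in PD100 and PD800, or 107 CPM (92.3 to 123) and 309 CPM (288 to 331). Its relative log2 ratio was 1.88 (1.65 to 2.11) and its plain ratio 1.53, a 2.90-fold higher level, and it took rank 391 of the 6984 tested genes. Gskip, a small protein that binds the kinase GSK3B and anchors it with protein kinase A, starts about 0.1 Mb before Papola. Gskip had 35 and 122 UMIs, or 19.2 CPM (13.3 to 26.7) and 47.3 CPM (39.3 to 56.4), and a relative log2 ratio of 1.64 (1.09 to 2.23). Both were among the 5 highest by the lower end of the relative interval. That their CPM intervals did not overlap follows largely from this choice.

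Siva1, a regulator of apoptosis, was the most abundant gene of the list. It had 761 UMIs in PD100 and 2044 in PD800, or 417 CPM (388 to 447) and 792 CPM (758 to 827). The relative log2 ratio was 1.27 (1.15 to 1.39) and the plain ratio 0.93. Because of its abundance Siva1 held much of the sum: without it, the plain log2 ratio of the other 54 genes was 0.30.

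Bag5, a co-chaperone of Hsp70 proteins, had 51 and 137 UMIs, or 27.9 CPM (20.8 to 36.7) and 53.1 CPM (44.6 to 62.8), with a relative log2 ratio of 1.27 (0.79 to 1.76). Cdca4, a nuclear protein of the SERTA family whose expression follows the cell cycle, had 124 and 307 UMIs, or 67.9 CPM (56.5 to 81.0) and 119 CPM (106 to 133), with a relative log2 ratio of 1.15 (0.85 to 1.46). Both were higher in PD800 by plain and relative ratio. They too were named for the lower end of the relative interval, so their separate CPM intervals are no further result.

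The next abundant genes showed smaller differences. Vrk1, a nuclear kinase that acts on chromatin and the nuclear envelope, had 214 and 480 UMIs and a relative log2 ratio of 1.01 (0.77 to 1.25). Glrx5, a mitochondrial glutaredoxin needed for iron-sulphur cluster assembly, had 321 and 622 UMIs and a relative log2 ratio of 0.80 (0.60 to 1.00). Of its PD100 UMIs, 33 came from the 38 cells with endoderm markers, and without these cells the plain ratio was 0.54 in place of 0.46. Zfyve21, an endosomal FYVE-domain protein, had 204 and 390 UMIs and a relative log2 ratio of 0.78 (0.53 to 1.03). Nudt14, a hydrolase of UDP-sugars, had 197 and 352 UMIs and a relative log2 ratio of 0.68 (0.42 to 0.94). In these genes the plain ratio was above 0 as well, from 0.34 for Nudt14 to 0.67 for Vrk1.

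For other abundant genes the interval of the plain ratio included 0. Ddx24, a DEAD-box RNA helicase, had 323 and 505 UMIs, a relative log2 ratio of 0.49 (0.28 to 0.69) and a plain ratio of 0.15 (-0.06 to 0.35). Klc1, a kinesin light chain, had 297 and 469 UMIs, a relative ratio of 0.50 (0.29 to 0.72) and a plain ratio of 0.16 (-0.05 to 0.37). Both ratios were above 0 on either scale.

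Ckb, the brain-type creatine kinase, had 595 and 831 UMIs, or 326 CPM (300 to 353) and 322 CPM (300 to 345). Its relative log2 ratio was 0.32 (0.17 to 0.48) and its plain ratio -0.02 (-0.17 to 0.14), so the sign turned with the scale. A single PD100 cell held 58 of the 595 Ckb UMIs, and without that cell the relative ratio was 0.46 and the plain ratio 0.11.

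Among tested genes, the 5 lowest by the upper end of the relative interval were Tmem121, Crip2, Itpk1, Akt1 and Ckb, although the interval of Ckb lay above 0. Tmem121, a membrane protein and the last gene of the list, had 35 UMIs in PD100 and 18 in PD800, or 19.2 CPM (13.3 to 26.7) and 6.97 CPM (4.13 to 11). Its relative log2 ratio was -1.12 (-2.02 to -0.26), and it is the 1 tested gene whose interval lay below 0. Akt1, a central kinase of growth factor signalling, had 33 and 26 UMIs and a relative ratio of -0.50 (-1.30 to 0.28). Itpk1, an inositol phosphate kinase, had 135 and 141 UMIs and a relative ratio of -0.09 (-0.45 to 0.26), with a plain ratio of -0.44 (-0.79 to -0.08). Crip2, a LIM-domain protein, had 601 and 624 UMIs, or 329 CPM (303 to 356) and 242 CPM (223 to 262), and a relative ratio of -0.10 (-0.27 to 0.06). Its plain ratio was -0.44 (-0.61 to -0.28), and 58 of its PD100 UMIs lay in the 38 cells with endoderm markers, without which the plain ratio was -0.37. Crip1, the LIM-domain relative of Crip2 that starts next to it, stood on the other side of 0, with 121 and 255 UMIs and a relative ratio of 0.92 (0.60 to 1.24).

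**Figure D2:**
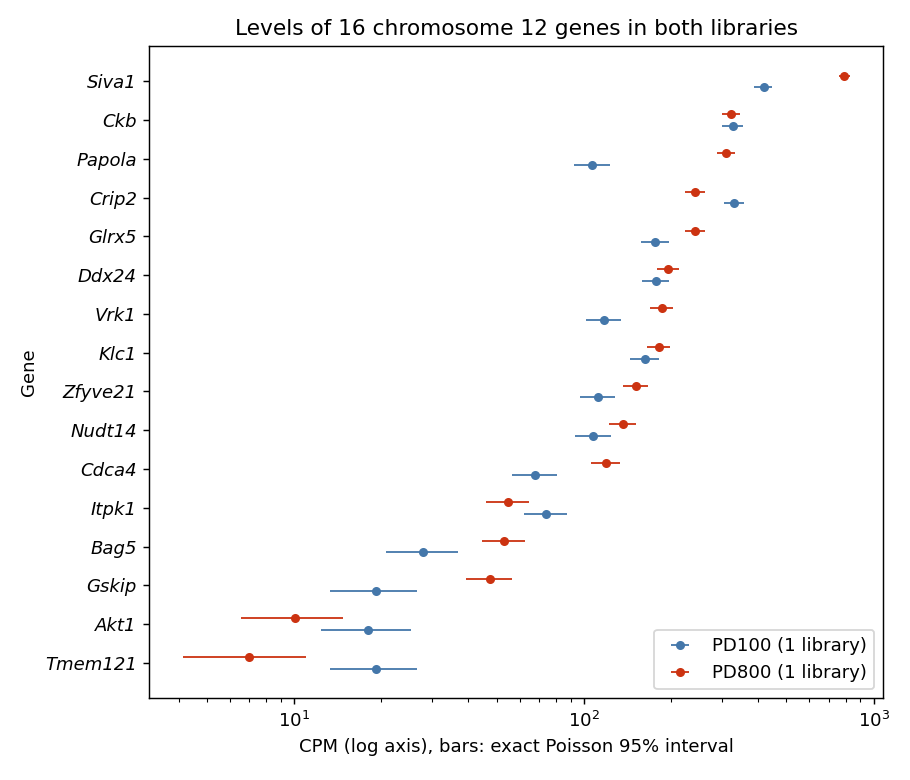
Level of 16 genes of the distal chromosome 12 list in CPM (x axis, log scale) in the PD100 library (blue) and the PD800 library (red), ordered by the PD800 level. Points are 1 library each and bars exact Poisson 95% intervals. Siva1 is the highest gene with 417 and 792 CPM, Papola shows the widest gap upwards, Tmem121, Crip2, Itpk1 and Akt1 are lower in PD800, and the Ckb points nearly coincide.

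Promoter sequences were looked up to show what lies in front of the genes that stood furthest apart. RefSeq promoters on GRCm38.p6 matched 51 of the 55 genes, and Brf1, Cinp, Wars and Wdr25 had no entry. The 250 bases before the start were used, taking the annotated start nearest to the GENCODE gene start, which was more than 1 kb away only for Cep170b and Crip1. Papola, Gskip and Siva1 are shown as genes with high relative ratios, and Crip2 and Tmem121 as the neighbours that did not share them, each 5′ to 3′ on the strand of the gene. Capitals mark matches, on either strand, to the GC box with the letters GGGCGG, the CCAAT box, the TATA box with the letters TATAAA or the YY1 core with the letters GCCATNTT.
Papola, chr12:105784447-105784696, plus strand: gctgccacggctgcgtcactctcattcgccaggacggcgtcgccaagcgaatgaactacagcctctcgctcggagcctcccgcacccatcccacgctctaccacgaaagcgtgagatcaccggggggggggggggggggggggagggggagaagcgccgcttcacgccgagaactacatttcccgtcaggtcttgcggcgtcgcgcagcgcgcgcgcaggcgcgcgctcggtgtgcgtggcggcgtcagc
Gskip, chr12:105685102-105685351, plus strand: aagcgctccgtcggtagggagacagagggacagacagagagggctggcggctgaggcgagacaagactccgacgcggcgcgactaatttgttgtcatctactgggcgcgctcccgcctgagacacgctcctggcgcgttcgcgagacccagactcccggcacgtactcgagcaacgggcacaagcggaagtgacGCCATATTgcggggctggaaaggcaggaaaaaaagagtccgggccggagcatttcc
Siva1, chr12:112644578-112644827, plus strand: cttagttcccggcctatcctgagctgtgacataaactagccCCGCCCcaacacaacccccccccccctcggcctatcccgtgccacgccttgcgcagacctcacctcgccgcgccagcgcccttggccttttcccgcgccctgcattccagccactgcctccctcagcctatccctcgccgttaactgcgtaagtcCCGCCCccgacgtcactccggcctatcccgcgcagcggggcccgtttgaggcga
Crip2, chr12:113139986-113140235, plus strand: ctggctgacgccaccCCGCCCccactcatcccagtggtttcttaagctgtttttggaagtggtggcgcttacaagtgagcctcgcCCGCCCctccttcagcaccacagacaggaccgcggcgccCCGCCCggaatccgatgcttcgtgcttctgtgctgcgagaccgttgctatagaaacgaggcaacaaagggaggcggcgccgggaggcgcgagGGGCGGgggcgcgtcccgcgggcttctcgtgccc
Tmem121, chr12:113185653-113185902, plus strand: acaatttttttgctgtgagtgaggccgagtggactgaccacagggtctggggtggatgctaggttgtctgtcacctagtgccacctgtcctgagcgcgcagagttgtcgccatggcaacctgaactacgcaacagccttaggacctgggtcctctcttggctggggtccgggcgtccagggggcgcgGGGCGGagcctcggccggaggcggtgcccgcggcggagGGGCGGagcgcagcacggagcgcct

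None of the letters searched occurred in the Papola window. Gskip held a YY1 core 56 to 49 bases before its RefSeq start. That start lies 523 bases inside the gene as GENCODE places it. Siva1 held 2 GC boxes, Crip2 held 4 and Tmem121 held 2. A GC box was found in 39 of 51 promoters of the list (76.5%) and in 39.4% of 20559 promoters over all genes. A CCAAT box was found in 18 (35.3%, against 35.1%), a TATA box in 1, that of Ckb (1.96%, against 12.2%), and a YY1 core in 3, those of Atg2b, Gskip and Mark3 (5.88%, against 3.77%). The windows of Atg2b and Gskip overlap, and the same site was counted for both. The median GC content was 67.6% against 54.0%, and the median ratio of observed to expected CpG 0.91 against 0.47. The background over all genes includes genes that these cells do not express. Over the 5315 of 6984 tested genes with a promoter, the GC box share was 62.6%, the CCAAT box share 38.4%, the TATA box share 5.66%, the YY1 core share 5.25% and the median CpG ratio 0.78, beside 69.7%, 33.3%, 3.03%, 6.06% and 0.92 for the 33 tested genes of the list with a promoter. Fewer than 80% of tested genes matched, so this comparison is void, and nothing particular to the list was read from its promoters. GC boxes stood in genes on both sides of the range.

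RNA processing and tRNA genes were tested in full, and 5 of 5 had a relative ratio above 0 with an interval above 0. The background over all tested genes was 30.0% for such intervals, and the list was chosen for its direction. Summed, they had 783 and 1721 UMIs and a relative log2 ratio of 0.98 (0.86 to 1.10), which was 0.49 without Papola. Besides Papola and Ddx24, Wars, the tryptophanyl-tRNA synthetase, had 148 and 217 UMIs and a relative ratio of 0.39 (0.09 to 0.71). Dicer1, the enzyme that cuts microRNA precursors, had 53 and 98 UMIs and a relative ratio of 0.73 (0.23 to 1.24). Trmt61a, a tRNA methyltransferase subunit, had 64 and 103 UMIs and a relative ratio of 0.53 (0.07 to 1.00).

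Transcription and chromatin genes numbered 6, and all 5 tested ones were above 0 by the relative ratio. For 4 of them the whole interval lay above 0 (background 30.0%). Their sum had 380 and 813 UMIs and a relative log2 ratio of 0.94 (0.76 to 1.12), and 0.83 without Cdca4. Yy1, a zinc-finger transcription factor, had 102 and 196 UMIs and a relative ratio of 0.79 (0.43 to 1.14). Ccnk, the cyclin of the transcription elongation kinases, had 79 and 170 UMIs and a relative ratio of 0.95 (0.56 to 1.35). Mta1, a subunit of the NuRD chromatin remodeller, had 42 and 78 UMIs and a relative ratio of 0.74 (0.18 to 1.31). Brf1, a subunit of the RNA polymerase III initiation factor, had 26 and 40 UMIs and its interval included 0. Rcor1, the CoREST corepressor, had 7 and 22 UMIs and was not tested.

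Kinases, phosphatases and signalling genes formed the largest group, with 11 genes of which 7 were tested. Of these, 5 were above 0 by the relative ratio, each with its whole interval (background 30.0%), and the others were Itpk1 and Akt1. The sum had 617 and 1146 UMIs and a relative log2 ratio of 0.74 (0.59 to 0.88), and 0.57 without Vrk1. Ppp2r5c, a regulatory subunit of a major serine/threonine phosphatase, had 106 and 207 UMIs and a relative ratio of 0.81 (0.46 to 1.16). Mark3, a kinase of microtubule-binding proteins, had 44 and 87 UMIs and a relative ratio of 0.83 (0.29 to 1.38). Mok, a kinase related to the MAP kinases, had 23 and 50 UMIs and a relative ratio of 0.96 (0.22 to 1.74). The range in this group, from -0.50 for Akt1 to 1.64 for Gskip, was wider than in the groups above.

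Cytoskeleton and transport genes had 9 entries and 5 tested genes, all above 0 by the relative ratio. Their sum had 492 and 812 UMIs and a relative log2 ratio of 0.57 (0.40 to 0.73). Dync1h1, the heavy chain of cytoplasmic dynein, had 78 and 105 UMIs, a relative ratio of 0.27 (-0.16 to 0.71) and a plain ratio of -0.07. Evl, an Ena/VASP protein that promotes actin filament growth, had 30 and 84 UMIs and a relative ratio of 1.33 (0.71 to 1.98). Among the untested genes of the group, Inf2, a formin, had 18 and 6 UMIs. Pacs2, a sorting protein of the endoplasmic reticulum and mitochondria, had 2 and 17 UMIs. Both lay under the minimum of 50 UMIs, so no ratio was read for them.

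Genome maintenance was represented by 2 genes. Xrcc3, a protein of homologous recombination, had 19 and 55 UMIs, or 10.4 CPM (6.26 to 16.2) and 21.3 CPM (16.1 to 27.7), and a relative log2 ratio of 1.38 (0.60 to 2.21). Cinp, a protein of the replication checkpoint, had 137 and 185 UMIs, a relative ratio of 0.28 (-0.05 to 0.61) and a plain ratio of -0.07 (-0.39 to 0.26). The Xrcc3 level was low, and its CPM intervals overlapped at their edges.

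Among cell death regulators, the tested genes were Siva1 and Bag5, while Moap1 (3 and 6 UMIs) and Ppp1r13b (11 and 15 UMIs) were too low. Autophagy and endosome genes were carried by Zfyve21, with Atg2b (17 and 20 UMIs) and Tecpr2 (5 and 13 UMIs) untested. Ubiquitin and BTB proteins had 132 and 184 UMIs and a relative log2 ratio of 0.32 (-0.01 to 0.66). Their plain level was not higher in PD800, with 72.3 CPM in PD100 and 71.3 CPM in PD800. In that group Ubr7, a ubiquitin ligase, had 86 and 127 UMIs with a relative ratio of 0.41 and Btbd6, an adaptor of cullin ligases, 29 and 42 UMIs with 0.38, and both intervals included 0. Metabolic and mitochondrial genes had 1124 and 1820 UMIs and a relative ratio of 0.54 (0.43 to 0.65), which was 0.75 without Ckb. The remaining genes (Crip1, Crip2, Setd3, Tmem121, Wdr25) had 856 and 1061 UMIs and a relative ratio of 0.15 (0.02 to 0.28), and 0.62 without Crip2. Their plain difference pointed the other way, with 469 CPM in PD100 and 411 CPM in PD800. Each of the 10 role groups was above 0 by the relative ratio of its sum, from 0.15 to 1.26.

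By place, the genes fell into 6 runs separated by gaps of at least 0.55 Mb. The first, Golga5 to Ddx24, had 606 and 861 UMIs and a relative log2 ratio of its sum of 0.35 (0.20 to 0.50). The second, Dicer1 to Glrx5, had 379 and 732 UMIs and 0.79 (0.61 to 0.98). The third, Atg2b to Vrk1, had 461 and 1420 UMIs and 1.47 (1.31 to 1.62). Its interval lay above those of all other runs, and its 3 tested genes were all at least 2-fold higher (background 13.9%). From there on the values were lower, with 0.73 (0.56 to 0.89) for Setd3 to Wdr25, 0.54 (0.45 to 0.63) for Ppp2r5c to Ppp1r13b and 0.78 (0.70 to 0.85) for Inf2 to Tmem121. In the fifth run 11 of 11 tested genes were above 0 by the relative ratio, and in the last 8 of 11. These sums lean on single genes. Papola held 798 of the 1420 PD800 UMIs of the third run, and Siva1 2044 of the 3857 of the last. The median relative ratios of the tested genes were 0.45, 0.76, 1.64, 0.79, 0.78 and 0.68 in the same order of runs. The fifth and the last run changed order between sum and median. By both measures the highest run was the third, with its 3 tested genes, and not the last.

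The 9 genes that start before the last 15 Mb had 5 tested genes with a median relative ratio of 0.49 and none at least 2-fold higher. The 46 genes inside had 31 tested genes with a median of 0.79 (0.50 to 0.96), of which 9 were at least 2-fold higher. The background was 13.9%, beside which none of 5 says little. The list was chosen on these values, so the contrast is descriptive. Just outside the list, the 4 nearest tested genes on the centromere side were Lgmn (relative log2 ratio -0.48), Cpsf2 (0.05), Atxn3 (-0.49) and Tc2n (3.40, with 28 and 329 UMIs). Psmc1, further towards the centromere, stood at 0.92, as high as many listed genes. On the telomere side the 1 tested gene left was Cdca7l (0.67, 0.09 to 1.27).

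Within the segment, 16 tested genes are not on the list, and they let the list be compared with its own surroundings. Their median relative ratio was 1.04 (0.71 to 2.03), 15 of 16 were above 0 and 8, or 50%, were at least 2-fold higher (background 13.9%). Gm10425 and Apopt1 among them carry the short repeat described below, which no listed gene carries. Without these carriers, the median of 14 genes was 0.98 (0.47 to 2.03), and 6 were at least 2-fold higher. The imprinted noncoding RNA genes of the Dlk1-Dio3 cluster were among them: Meg3 had 735 and 2386 UMIs (1.54, 1.42 to 1.66), Rian 51 and 162 (1.51, 1.05 to 1.99) and Mirg 14 and 54 (1.79, 0.92 to 2.75). Hsp90aa1, a stress-inducible Hsp90 chaperone, had 6097 and 12218 UMIs (0.85, 0.80 to 0.89), more than the 55 listed genes together. Ak7, an adenylate kinase that starts between Gskip and Papola, had 17 and 99 UMIs (2.38, 1.63 to 3.22). The exception was Amn, an endocytic receptor subunit, with 47 and 10 UMIs (-2.39, -3.54 to -1.39), and 35 of its 47 PD100 UMIs were in the 38 cells with endoderm markers. The list therefore did not hold the highest genes of the segment.

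**Figure D3:**
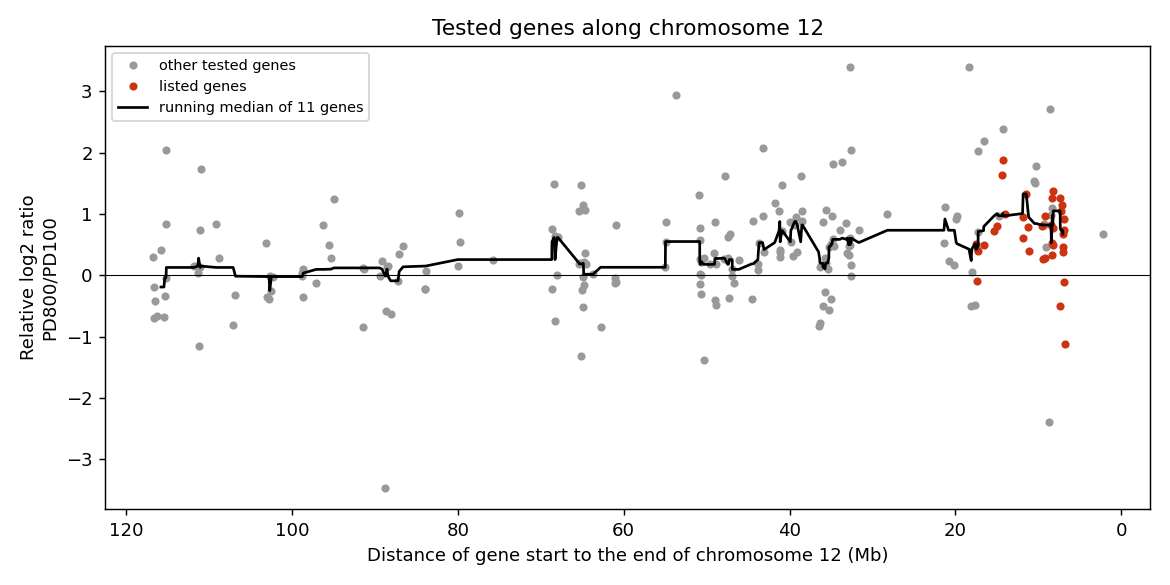
Relative log2 ratio of PD800 over PD100 (y axis) for the tested genes of chromosome 12 by the distance of their start to the chromosome end in Mb (x axis, the end at the right). Red points are listed genes, grey points all others, and the line is the running median of 11 genes. The line stays near 0 over the first part of the chromosome and is highest, at 1.33, within the listed segment at Ccnk and Evl.

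Over the rest of chromosome 12, the 180 tested genes before Golga5 had a median relative ratio of 0.26 (0.17 to 0.36), and 13.9% of them were at least 2-fold higher, the same share as over all tested genes. In 5 Mb windows the medians lay between -0.23 and 0.41 up to 60 Mb. They were 0.26 and 0.22 from 65 to 75 Mb, 0.53 from 75 to 80 Mb, 0.38 from 80 to 85 Mb and 0.61 from 85 to 90 Mb. From 100 to 105 Mb the median was 0.52, from 105 to 110 Mb it was 1.17 with 14 of 14 genes above 0, and from 110 to 115 Mb it was 0.78 with 25 of 29 above 0. The median was thus above 0 well before the listed segment and highest inside it.

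All 44 tested genes in the last 15 Mb of chromosome 12, listed or not, had a median relative ratio of 0.82 (0.68 to 0.98). Of them, 34.1% were at least 2-fold higher (background 13.9%). The rest of the chromosome had a median of 0.28. An end above its rest was not particular to chromosome 12. The median of the last 15 Mb was 0.96 on chromosome 6 (rest 0.24) and 0.95 on chromosome 3 (rest 0.47). It was 0.62 on chromosome 5 (rest 0.06) and 0.54 on chromosome 11 (rest -0.33). On some chromosomes the end was the lower part, such as chromosome 8 with -0.87 (rest -0.49). The interval over genes of chromosome 12 overlapped those of chromosomes 6, 3, 5, 7, 11, 13, 16, X and 2, so no order among them was read.

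**Figure D4:**
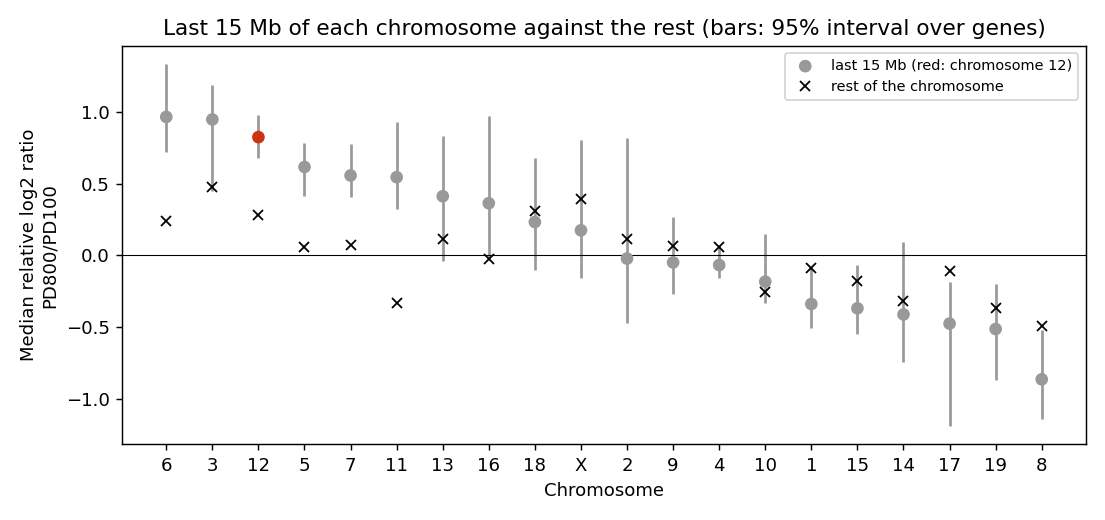
Median relative log2 ratio of PD800 over PD100 (y axis) of the tested genes that start in the last 15 Mb of each chromosome (circles, with 95% order-statistic intervals over genes) and of the rest of the same chromosome (crosses), ordered by the former. Chromosome 12, in red, has 0.82 against 0.28 in its rest, and its interval overlaps those of its neighbours in the order.

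Some listed genes share a start region or overlap, so their values are not separate readings of the segment. Overlap with another counted gene was found for 17 of the 55, such as Gskip with Atg2b, Klc1 with Xrcc3, Zfyve21 with Ppp1r13b and Brf1 with Btbd6, and it was not stated whether reads were assigned by strand. Several pairs start head to head. Setd3, an actin histidine methyltransferase, and Ccnk start 265 bases apart and had similar relative ratios, 0.62 (0.23 to 1.01) and 0.95 (0.56 to 1.35). Xrcc3 and Zfyve21 start 297 bases apart and had 1.38 and 0.78, with overlapping intervals. Atg2b and Gskip overlap at their GENCODE starts and had 0.08 (-0.93 to 1.10) and 1.64 (1.09 to 2.23). None of the 55 genes had a transcript with a 20-mer of the short repeat family whose carriers had a median relative ratio of 1.59 (451 tested genes). The same median was -0.04 over the 6533 tested genes without the repeat.

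To see whether the difference was spread over the cells, each cell was thinned to 1000 UMIs, and values were averaged over all possible draws. A PD100 cell then held 3.04 UMIs of the 55 genes on average and a PD800 cell 4.07. Cells without a UMI of any of them made up 8.59% of PD100 (exact binomial interval 6.76 to 10.7) and 2.81% of PD800 (1.81 to 4.07). A Poisson distribution of the same mean gives 4.80% and 1.72%. Without thinning 16 of 814 PD100 cells (1.97%) and 4 of 900 PD800 cells (0.44%) had none. At least 5 UMIs were found in 20.8% and 38.0% of thinned cells. The whole distribution stood higher in PD800, with quartiles of 2 and 5 against 1 and 4 UMIs, and not only its upper end.

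**Figure D5:**
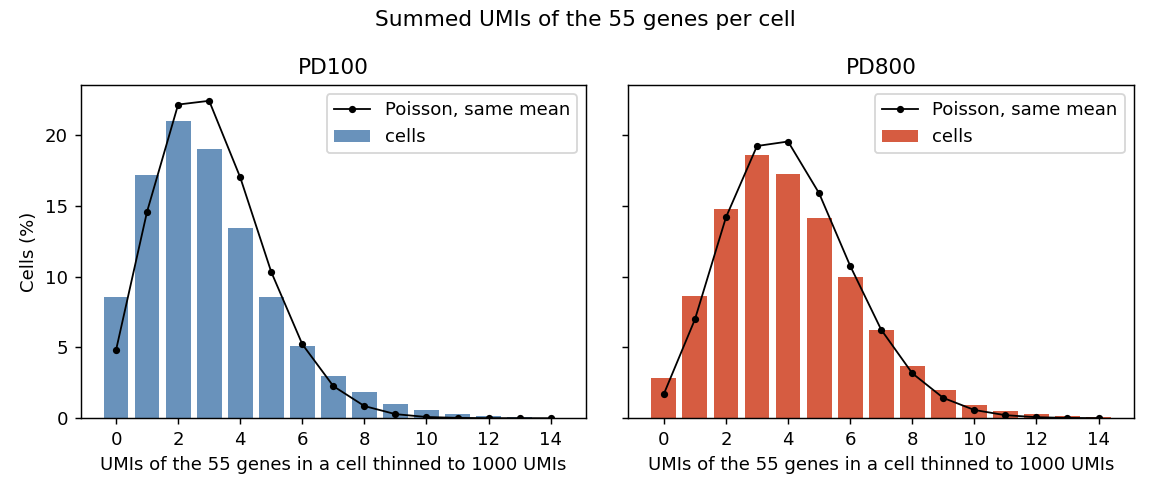
Share of cells in percent (y axis) by the number of UMIs of the 55 genes in a cell thinned to 1000 UMIs (x axis), for 814 PD100 cells and 900 PD800 cells, averaged over all draws. Bars are cells and the black line is a Poisson distribution of the same mean. The PD800 bars are shifted to the right and follow the line more closely.

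The Fano factor (variance over mean, 1 for Poisson counts) of the summed UMIs was 1.68 in PD100 and 1.29 in PD800. If the genes varied independently of each other, the sums would have had 1.40 and 1.21. Without Ckb, of which 1 PD100 cell held 58 of 595 UMIs, the values were 1.56 and 1.31. For the 10 genes that reached 0.1 UMI per thinned cell in PD100 and in PD800, the median Fano factor was 1.33 in PD100 and 1.20 in PD800, beside 1.31 and 1.20 over 1392 genes with the same minimum. It was lower in PD800 for 9 of the 10 genes, with Papola as the exception (1.19 and 1.29), and for 87.4% of the 1392 genes. The lower spread in PD800 was thus as common among all genes as in the list.

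Siva1 UMIs were found in 31.2% of thinned PD100 cells (28.0 to 34.5) and in 51.1% of PD800 cells (47.8 to 54.4), and in 50.2% and 77.9% without thinning. Papola UMIs were found in 9.04% (7.21 to 11.3) and 24.6% (21.9 to 27.6), and in 17.1% and 48.9% without thinning. Crip2 UMIs were found in 22.6% (19.8 to 25.6) and 19.1% (16.6 to 21.8), intervals that overlap, and in 37.5% and 38.6% without thinning, where depth differs. A cell type that should lack these genes was not present, so the shares stand without a background share.

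The difference was also present in each of 3 depth classes, of which the deepest has no upper bound and is not matched in depth. In cells with 1000 to 1500 UMIs the plain log2 ratio of the sum was 0.50 (0.34 to 0.66), in those with 1500 to 2500 UMIs it was 0.45 (0.37 to 0.54), and in deeper cells 0.35 (0.29 to 0.42). The 38 PD100 cells with endoderm markers had 3494 CPM (3119 to 3901) of the 55 genes and the other 776 PD100 cells 3040 CPM (2958 to 3123). Both lay below the 4038 CPM (3961 to 4116) of PD800.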

How the data were processed

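The authors deposited raw UMI counts per cell barcode and gene for 1 PD100 and 1 PD800 library. Reads had been mapped to an mm10 (GRCm38) transcriptome by the inDrops pipeline, and the submitters' processing notes name Scanpy. The annotation release and strand setting are not given in the sources used here. The study's cell filter was applied again: 1000 or more UMIs and at most 20% mitochondrial UMIs. It left more cells per library than the study states, and the reason is not given in the sources used here.

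UMIs were summed per library and scaled to CPM (UMIs scaled to the same library total). Genes with 50 UMIs or more in both libraries together entered the comparison of ratios. Intervals were exact Poisson, conditional or binomial ones at 95%, for counting error only, since 1 library per group allows no test. UMIs count molecules, but depth per cell limits rare genes. A ratio with 0 UMIs in a library used a floor of 3 counts over that library. Medians over genes had order-statistic intervals. Fano factors and shares of cells were exact means over all thinning draws to 1000 UMIs, in place of the single draw that had been planned, and their binomial intervals used the rounded number of cells. Doublets (9 and 25 cells, Scrublet in Scanpy 1.11.5, expected rate 5%) stayed in, except in an alternative. Positions came from GENCODE M21 and promoters from RefSeq. The repeat family was read from transcripts by a script. The steps were tested on simulated data. Python 3.11.15, NumPy 2.4.6, SciPy 1.17.1 and pandas 2.3.3 were used.

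The genes, lists and role groups were chosen with earlier results of these data known. Given in full were the 10 genes with the most UMIs and, among tested genes, the 5 highest by the lower end and the 5 lowest by the upper end of the relative interval. Other genes were given by role group, with the examples that had the most UMIs. Inf2, Pacs2, Evl, Xrcc3, Amn, Ak7 and the genes just outside the list were named after their values were seen.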

Additional observations from a re-analysis of the deposited data

Results flagged for a closer look

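The barcodes that the cell filter left out for having fewer than 1000 UMIs were not used to describe the genes, and they held a signal of the same direction. The 477 PD100 barcodes had 772 UMIs of the 55 genes among 246800, or 3128 CPM (2911 to 3357, exact Poisson). The 758 PD800 barcodes had 1759 among 447405, or 3932 CPM (3750 to 4120). The plain log2 ratio of PD800 over PD100 was 0.33 (0.21 to 0.45). It was 0.60 (0.48 to 0.73) relative to the median of genes with at least 10 UMIs in these barcodes, where 20 of 30 listed genes were above 0. These barcodes come from the same 2 libraries and are no replicate, and how much of their RNA was free RNA from the counted cells was not tested.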

How the results depend on the processing

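The summed difference kept its direction under each of 9 alternatives, with log2 ratios from 0.30 to 0.74. It was 0.74 with median-of-ratios scaling, which is the relative ratio by construction, 0.45 with totals that leave out mitochondrial genes and 0.30 without Siva1. The median relative ratio stayed between 0.61 and 0.79 under 11 alternatives. Of these, 3 (median-of-ratios scaling, totals without mitochondrial genes and the listed genes without the repeat) cannot move a relative ratio by construction, and the last, which removes no gene, is also 1 of the 9. The number of listed genes at least 2-fold higher went from 9 of 36 to 3 of 20 with a minimum of 200 UMIs, which leaves fewer genes. It otherwise lay between 8 and 10, the latter of 43 genes with a minimum of 20 UMIs. The share over all tested genes is given only for the main setting, 13.9%. The number at least 2-fold lower went from 1 of 36 to 0 of 34 both with 2000 or more UMIs per cell and without called doublets. In these settings fewer listed genes reached the minimum, to which Tmem121 lay close with 53 UMIs over both libraries. The plain log2 ratio of Tmem121 was -1.27 and -1.65 there, beside -1.46 in the main setting. The number was 2 of 43 with a minimum of 20 UMIs and 0 of 20 with a minimum of 200 UMIs. The Fano factor of the sum was 2.57 in PD100 and 1.53 in PD800 when thinned to 2000 UMIs, and 4.62 and 3.88 without thinning. PD100 had the higher value under each of 6 alternatives, of which 1, a single random draw (1.54 and 1.33), was chosen after seeing the data. The other tested genes of the segment kept a median between 0.98 and 1.23 under 5 alternatives. One of these, without carriers of the repeat, was chosen after seeing the data. Of 96 values for single named genes, 11 moved by more than their counting interval, all under median-of-ratios scaling, and no called direction turned. The causes of these shifts were not tested. No paired analysis was possible because each group has 1 library. Depth limits the 19 genes under 50 UMIs, for which no direction was read singly.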
